A study of Mus musculus with 36 samples.

Results

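Engineered ureteric buds (eUBs), which are ureteric bud cells made from mouse embryonic stem cells (mESC), were compared with ureteric bud (UB) cells taken ex-fetu from E12.5 mouse kidneys. The comparison used 8 of the 36 RNA sequencing libraries of the series, 4 of eUB cells and 4 of E12.5 UB cells. The libraries were assigned to the groups by title. The eUB cells came from the line labelled Sox9-mCherry-mESC, which carries a fluorescent reporter. They were differentiated as embryoid bodies with Activin A, BMP4, CHIR99021, retinoic acid, FGF9, SB431542, Y27632, Matrigel and GDNF, and were sorted as EpCAM and mCherry positive. The embryoid bodies of a batch were pooled as 1 sample. The methods name the same line for the sort and for these libraries, while a sort of eUB cells shown elsewhere in the study used a Sox8-mCherry line. The E12.5 UB cells came from CD1 mice with no transgene or treatment stated, were sorted as RET and EpCAM positive after the ureter had been removed, and each sample pooled the kidneys of the embryos of 1 mouse. Per the methods, embryonic kidneys were processed directly or after cold storage in medium, and which applied to these samples is not given. The samples titled E12.5 carry E11.5 as their cell source, while those titled E11.5 carry E12.5. The titles were used, so the age of the ex-fetu cells rests on them. Origin from mESC, genetic background, culture, storage, sort gate and the pooling of embryos differed together between the groups and cannot be told apart. Gene positions are those of GENCODE vM21 on GRCm38, matched by Ensembl identifier.

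The UB is an epithelial outgrowth of the nephric duct that invades the metanephric mesenchyme and branches into the tree of collecting ducts. GDNF from the mesenchyme acts on the receptor *Ret* at the branching tips, where the transcription factors *Etv4* and *Etv5* and the ligand *Wnt11* are induced, while the trunk behind the tips loses *Ret* and takes on features of the collecting duct. *Wnt9b* from the bud induces the neighbouring mesenchyme to form nephrons.

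All levels are normalised CPM, which are read counts scaled to the depth of each library, given for replicates 1 to 4 in that order, and fold changes are on the scale of log2(normalised CPM + 1), on which the change of genes with low values is understated. The recovered reads on genes ran from 13 to 28.0 M in eUB libraries and from 20.5 to 23.0 M in E12.5 UB libraries, so that 3 reads, the limit of detection used, stood for 0.106 to 0.223 and for 0.123 to 0.145 normalised CPM. Such limits cover counting error only. In these bulk samples fewer cells of a type and less RNA per cell cannot be told apart.

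E12.5 UB replicate 1 stood apart from the other 3 libraries of its group. The correlation of its log2 values with theirs was 0.978 to 0.980, whereas those 3 correlated at 0.996 or more with each other. Genes of the mesenchyme were high in it. *Six2*, a nephron progenitor factor, was at 94.8 against 7.43 to 13.5 in the others, *Wt1* at 104 against 3.27 to 4.97, *Pdgfra* at 50.8 against 1.75 to 3.09 and *Foxd1*, a stromal progenitor factor, at 15.4 against 1.78 to 3.77. The same library also held transcripts that were near or under the limit of detection in the other 3 E12.5 UB libraries and abundant in mESC-derived cells. The pseudogene *Ftl2-ps* was at 41.0 against 0.0947 to 0.145, with 121 to 146 in eUBs and 119 to 180.0 in the mESC-derived nephron progenitors (iNP). *Zic1*, a neural and somite factor, was at 26.8 against 0 in the other 3, with 24.4 to 33.9 in eUBs and 57.8 to 80.2 in iNP cells. *Hprt* was at most 0.702 in the iNP and the mESC-derived stromal progenitors (iSP) but 41.5 to 49.3 in eUBs. It was 31.5 in E12.5 UB replicate 1 and 50.0 to 53.8 in the other E12.5 UB libraries. Among the eUB libraries, replicate 1 correlated at 0.985 to 0.991 with the rest, which correlated at 0.997 or more with each other. Results that turn on E12.5 UB replicate 1 are given with and without it, and their cause was not tested.

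Of 22761 genes listed, 13872 reached 1 normalised CPM in 4 or more of the 8 libraries and were tested with limma, with Benjamini-Hochberg adjustment. At an adjusted p under 0.05, 6164 genes (44.4%) were called, 3226 higher in eUBs (23.3% of those tested) and 2938 lower (21.2%). Over all these genes the log2 fold change had a median of -0.0089 and a median size of 0.36. Of the called genes, 950 were above a log2 fold change of 1 and 787 below -1, while 43 were above 3 and 38 below -3. Without E12.5 UB replicate 1 the count of calls was 7251 (52.3%), 26.8% higher and 25.5% lower. The 4 eUB and 4 E12.5 UB values of a gene did not overlap in 42.6% of the genes tested. The counts of the gene groups can be read against these shares.

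The genes with the largest excess in eUBs were led by developmental transcription factors. The leading genes in both directions were chosen among called genes whose groups did not overlap. Their lack of overlap therefore follows from the choice and is no separate result. *Lmx1a* (ENSMUSG00000026686, chromosome 1, 167689237 to 167848741), a LIM homeodomain factor of the midbrain floor plate and inner ear, was 150.0, 125, 129 and 131 in the eUB libraries and 0.778, 0.284, 0.0457 and 0.145 in the E12.5 UB libraries. Every eUB library was above every E12.5 UB library, where the gene was at or near the limit of detection apart from replicates 1 and 2. The log2 fold change was 6.71 (SE 0.17, limma adjusted p = 6.1e-08) and 6.87 without E12.5 UB replicate 1. *Sp5* (ENSMUSG00000075304, chromosome 2, 70474923 to 70477729), a zinc finger factor that canonical Wnt signalling induces directly, was 135, 155, 142 and 173 in the eUB libraries and 4.30, 0.852, 1.05 and 2.27 in the E12.5 UB libraries. The groups did not overlap, and the log2 fold change was 5.73 (SE 0.3, adjusted p = 3.5e-06). *Nkx6-1* (ENSMUSG00000035187, chromosome 5, 101658139 to 101664996), known from ventral spinal cord and pancreatic beta cells, was 20.6, 26.3, 26.0 and 25.7 in the eUB libraries and 0.860, 0.0473, 0.0457 and 0.0966 in the E12.5 UB libraries, a log2 fold change of 4.39 (SE 0.2). *Dlx5*, a homeobox gene of branchial arches and skeleton, had a mean of 42.2 ± 2.02 in eUBs and of 1.11 ± 0.368 in E12.5 UBs (SD, n = 4 each), a log2 fold change of 4.37 (SE 0.14). For both genes the groups did not overlap.

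Ligands, receptors and surface proteins made up much of the rest of this group. *Wnt2b*, a ligand of the canonical Wnt pathway, was 26.3, 29.8, 25.6 and 28.2 in the eUB libraries and 0.737, 0.284, 0.366 and 0.241 in the E12.5 UB libraries (log2 fold change 4.35, SE 0.14). *Eda2r*, a receptor of the tumour necrosis factor family that p53 induces, was 44.3, 46.1, 44.8 and 48.1 in the eUB libraries and 1.47, 1.04, 1.83 and 1.79 in the E12.5 UB libraries (log2 fold change 4.22, SE 0.13). Neither gene overlapped between the groups, and both were nearly uniform among the 4 eUB libraries. The serine protease gene *Prss56* ran from 37.1 to 50.9 in eUBs and from 0.0409 to 0.320 in E12.5 UBs (log2 fold change 5.26), *Cntnap3* from 17.3 to 21.0 and from 0.0483 to 0.287 (4.14), and *BC048679* from 23.7 to 34.9 and from 0.331 to 1.64 (4.02). The limma adjusted p-values of these 9 genes ranged from 6.1e-08 to 3.5e-06.

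**Figure D1:**
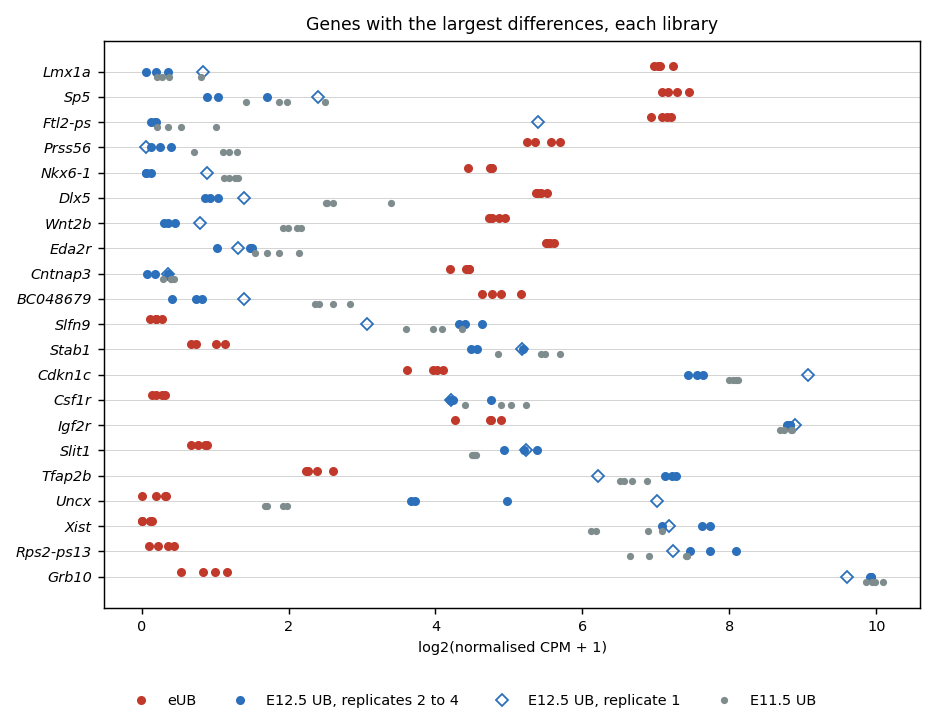
Level on the log2(normalised CPM + 1) scale of 19 leading genes and the leading pseudogene in each direction, 1 row a gene and 1 point a library: eUB red, E12.5 UB replicates 2 to 4 blue, E12.5 UB replicate 1 an open diamond, and E11.5 UB small grey points. In every row the eUB points lie apart from the E12.5 UB points, since only genes without overlap could be chosen. For *Ftl2-ps* the diamond (41.0 normalised CPM) lies much nearer to eUBs than the other E12.5 UB points do (0.0947 to 0.145).

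On the side of E12.5 UBs the largest log2 fold change with a pseudocount of 1 was that of *Grb10* (ENSMUSG00000020176, chromosome 11, 11930508 to 12038683), an imprinted gene for an adaptor protein that restrains growth factor receptors. It was 0.446, 0.781, 1.25 and 0.992 in the eUB libraries and 776, 969, 968 and 960.3 in the E12.5 UB libraries. The eUB libraries were all below 1.3 normalised CPM and the E12.5 UB libraries all above 770, a ratio of the means of 1061 and a log2 fold change of -8.96 (SE 0.14, limma adjusted p = 6.0e-09). With a pseudocount of 0.1 the log2 fold change of *Xist*, at -10.24, was beyond that of *Grb10*, at -9.96. *Igf2r* (ENSMUSG00000023830, chromosome 17, 12682406 to 12769664), the imprinted receptor that clears insulin-like growth factor 2, was 18.2, 25.9, 25.8 and 28.5 in the eUB libraries and 476, 453, 454 and 438 in the E12.5 UB libraries, a log2 fold change of -4.17 (SE 0.13). *Cdkn1c* (ENSMUSG00000037664, chromosome 7, 143458339 to 143461050), the imprinted inhibitor of cyclin-dependent kinases, was 15.2, 14.6, 11.2 and 16.3 in the eUB libraries and 535, 173, 188 and 198 in the E12.5 UB libraries. No eUB library reached the lowest ex-fetu library in either gene, and the log2 fold change of *Cdkn1c* was -4.0 (SE 0.33) and -3.62 without E12.5 UB replicate 1, in which it was highest.

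*Tfap2b* (ENSMUSG00000025927, chromosome 1, 19208914 to 19238576), a transcription factor of the distal nephron and collecting duct, was 3.71, 5.11, 4.21 and 3.79 in the eUB libraries and 73.0, 148, 138 and 154 in the E12.5 UB libraries, with no overlap (log2 fold change -4.58, SE 0.23). *Slit1*, a guidance ligand for Robo receptors, was 0.594, 0.710, 0.816 and 0.85 in the eUB libraries and 36.7, 29.6, 36.0 and 40.8 in the E12.5 UB libraries (log2 fold change -4.39, SE 0.13). *Uncx*, a homeobox gene of somites and kidney mesenchyme, was 0 to 0.258 in eUBs and 129, 11.6, 12.2 and 30.5 in E12.5 UBs. Replicate 1 was highest again, and the log2 fold change of *Uncx* was -4.64 with it and -3.91 without it. *Slfn9* ran from 0.0859 to 0.212 in eUBs and from 7.37 to 23.8 in E12.5 UBs (log2 fold change -3.91). *Csf1r* and *Stab1*, known from macrophages and, for *Stab1*, sinusoidal endothelium, ran from 0.106 to 0.248 and from 0.594 to 1.20 in eUBs and from 17.4 to 26.1 and from 21.4 to 35.7 in E12.5 UBs. *Csf1r* is taken up with the macrophage markers. *Stab1* is not in that list, and it ran from 14.2 to 25.5 in iNP and from 9.87 to 14.6 in iSP cells. Where the eUB values lie near or under the limit of detection, as for *Slfn9*, *Csf1r* and *Uncx*, the fitted log2 fold change depends on the 1 added to each value.

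*Xist*, the RNA that coats the inactive X chromosome of female cells, was 0, 0.106, 0.0859 and 0 in the eUB libraries and 144, 212, 197 and 135 in the E12.5 UB libraries (log2 fold change -7.34, limma adjusted p = 2.9e-08). It was at or under the limit of detection in every eUB library. Its exons overlap those of *Tsix* on the opposite strand, and since the use of strand in the counting is not given in the sources used here, the reads of the 2 genes cannot be told apart. The Y-linked genes did not all differ in the same direction. *Uty* ran from 13.1 to 24.3 in eUBs and from 6.35 to 10.5 in E12.5 UBs (log2 fold change 1.06) and *Eif2s3y* from 36.4 to 51.7 and from 17.1 to 26.6 (1.0), whereas *Kdm5d* ran from 2.80 to 3.56 and from 9.37 to 18.9 (-1.87). Each of the 3 was called, and each E12.5 UB sample was a pool of embryos.

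Processed pseudogenes were a visible part of the extremes. Of the 81 called genes with a size of log2 fold change above 3, 14 (17.3%) were annotated as pseudogenes, against 698 (5.03%) of all genes tested. The extreme ones were *Ftl2-ps*, with a log2 fold change of 5.62 (6.92 without E12.5 UB replicate 1), and *Rps2-ps13*, which was 0.0743, 0.284, 0.172 and 0.354 in the eUB libraries and 149.9, 175, 212 and 272 in the E12.5 UB libraries (log2 fold change -7.35). Both have near copies in the genome, of 99.1% and 99.8% identity at the closest, so that their values depend on how reads shared between copies were assigned.

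The transcription factors that define the nephric duct and UB were present in eUBs. Of the 12 in the list, 5 were called, 1 higher and 4 lower, and the median log2 fold change was -0.32. Without E12.5 UB replicate 1 the counts were 1 higher and 8 lower. That library was the lowest of its group for *Pax2* and *Gata3*. *Pax2*, which the whole urinary tract primordium needs, was 354, 496, 484 and 461 in the eUB libraries and 349, 608, 665 and 625 in the E12.5 UB libraries, with overlapping groups and a log2 fold change of -0.29 (limma adjusted p = 0.28), which was -0.51 (adjusted p = 0.0092) without replicate 1. *Gata3*, which keeps nephric duct cells in their fate, was 229.7, 244, 233 and 211 in the eUB libraries and 153, 306, 319.8 and 287 in the E12.5 UB libraries (log2 fold change -0.16, adjusted p = 0.57). Without replicate 1 all 3 remaining E12.5 UB values of *Gata3* were above all eUB values, with a log2 fold change of -0.41 (adjusted p = 0.0028).

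The called factors of this list ranged widely. *Lhx1*, needed for extension of the duct, was higher, with 74.3, 148, 142 and 146 in the eUB libraries and 76.7, 67.6, 60.4 and 73.0 in the E12.5 UB libraries (log2 fold change 0.82, SE 0.21), though eUB replicate 1 fell within the range of the E12.5 UB libraries. *Mecom* (log2 fold change -1.63) and *Tfap2b* were among those lower. *Sim1* was lower as well (-0.72, limma adjusted p = 0.038), but its libraries overlapped, and the call was lost when any 1 library other than E12.5 UB replicate 1 was left out and against UB cells titled E11.5. *Mecom*, the strongest after *Tfap2b*, ran from 70.3 to 100.4 in eUBs and from 168 to 336 in E12.5 UBs without overlap.

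Tip genes went in both directions. Of 11 in the list, 5 were higher and 4 lower, with a median log2 fold change of -0.26. *Sox8*, a tip factor of the *Ret* pathway, was 106, 83.5, 80.9 and 77.3 in the eUB libraries and 32.4, 26.0, 18.4 and 21.9 in the E12.5 UB libraries (log2 fold change 1.79, SE 0.17, limma adjusted p = 7.9e-05). *Sox9*, its partner, was 217, 218, 186 and 194 in the eUB libraries and 105, 142, 136 and 123 in the E12.5 UB libraries (0.69, SE 0.11). For both of these every eUB library exceeded every E12.5 UB library. The eUB cells were sorted by a reporter named for *Sox9*, so the level of *Sox9* cannot be told apart from the sort. Since the study elsewhere shows a sort of eUB cells by a *Sox8* reporter, the same limit may hold for *Sox8*. In the UB libraries titled E11.5 *Sox9* was 141 to 205, overlapping the eUB range.

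*Ret*, by whose product the ex-fetu cells were sorted, was itself 489, 498, 485 and 419.9 in the eUB libraries and 266, 359.5, 395 and 329 in the E12.5 UB libraries, a log2 fold change of 0.50 (SE 0.13, limma adjusted p = 0.011). The groups did not overlap, but the eUB value nearest to them, in replicate 4, was only slightly above the highest E12.5 UB value. *Wnt11*, *Etv5* and *Myb*, all targets of *Ret* signalling in the tip, were lower. *Wnt11* was 73.2, 65.4, 65.6 and 73.6 in the eUB libraries and 133, 142, 140.3 and 137 in the E12.5 UB libraries (log2 fold change -0.98, SE 0.072), and *Etv5* was 147, 133, 135 and 125 in the eUB libraries and 166, 262, 233 and 239 in the E12.5 UB libraries (-0.72, SE 0.14). *Myb* ran from 16 to 18.2 in eUBs and from 25.9 to 48.7 in E12.5 UBs (-1.21). None of the 3 overlapped between the groups. In the wider list of *Ret* signalling, receptors and feedback, 5 of 15 tested genes were higher and 6 lower. *Cxcr4*, a chemokine receptor of the tip, was higher (log2 fold change 1.04), as was *Spry2*, a feedback inhibitor (0.71), while its paralogue *Spry1* was lower (-0.54) and so was *Met*, the receptor of hepatocyte growth factor (-0.79).

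Genes of the trunk, collecting duct and urothelium were called in a single direction. Of 19 listed, 13 were tested, and 10 were lower in eUBs and none higher, by limma and equally without E12.5 UB replicate 1, with a median log2 fold change of -1.45. Of the 10 lower 1 was under 1 normalised CPM in every eUB library and passed the filter through the E12.5 UB libraries. Of the 11 that reached 1 normalised CPM in more than 1 library of each group 9 were lower and none higher. *Calb1* (ENSMUSG00000028222, chromosome 4, 15881264 to 15908064), which encodes the calcium buffer calbindin of the trunk and collecting duct, was 46.9, 42.3, 44.4 and 31.9 in the eUB libraries and 433, 682, 667 and 558 in the E12.5 UB libraries. All eUB libraries were far below the lowest E12.5 UB library, the ratio of the means was 14.1, and the log2 fold change was -3.78 (SE 0.17, limma adjusted p = 1.5e-06). *Wnt9b* was 52.3, 82.3, 66.2 and 66.1 in the eUB libraries and 165, 179.6, 218 and 173 in the E12.5 UB libraries (log2 fold change -1.46, SE 0.14). *Wnt7b*, the trunk ligand that orients the medulla, was 37.1, 38.3, 29.6 and 30.5 in the eUB libraries and 52.0, 95.3, 131 and 119 in the E12.5 UB libraries (-1.45, SE 0.26). The levels of both were thus reduced but well above the limit of detection in eUBs.

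*Scnn1b*, a subunit of the sodium channel of the collecting duct, ran from 3.58 to 5.71 in eUBs and from 9.82 to 30.4 in E12.5 UBs (log2 fold change -2.04). E12.5 UB replicate 1 was the lowest of its group, and without it the log2 fold change was -2.42. Against UB cells titled E11.5, which share the eUB libraries with this comparison, *Calb1* had a log2 fold change of -3.85, *Wnt7b* -1.86, *Wnt9b* -2.19, *Wnt11* -0.11, *Sox8* 1.89 and *Ret* 0.38. *Sox9* (0.20, limma adjusted p = 0.16), *Etv5* (-0.19, adjusted p = 0.074) and *Wnt11* (adjusted p = 0.51) were not called there.

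**Figure D2:**
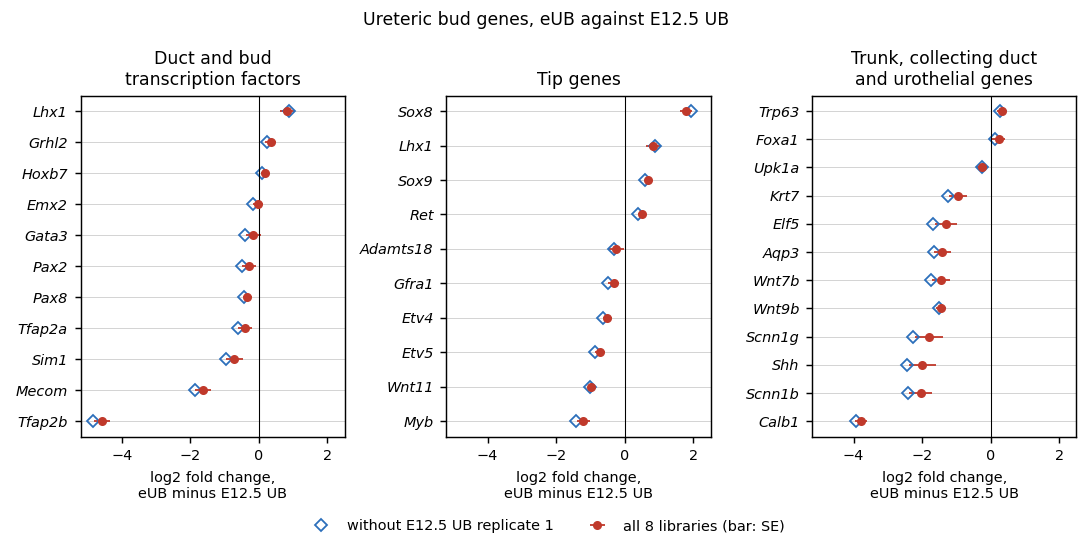
Log2 fold change, eUB minus E12.5 UB, of 11 tested duct and bud transcription factors (left), 10 tip genes (middle) and 12 trunk, collecting duct and urothelial genes (right), with all 8 libraries (filled points, bars are the standard error) and without E12.5 UB replicate 1 (open diamonds). Tip genes lie on both sides of 0, from 1.79 for *Sox8* to -1.21 for *Myb*, whereas 9 of the 12 genes on the right were called and lie at -0.95 or below, down to *Calb1* at -3.78.

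With all 8 libraries most epithelial genes were not called. Of 25 junction and keratin genes 2 were higher and 4 lower, and 19 were not called, with a median log2 fold change of 0.02. *Epcam*, on which both sorts rest, was 684, 674, 588 and 651 in the eUB libraries and 372, 603, 619.6 and 635 in the E12.5 UB libraries (log2 fold change 0.25, limma adjusted p = 0.26), and *Cdh1*, which encodes E-cadherin, was 647, 658, 569 and 584 in the eUB libraries and 381, 676, 714 and 717 in the E12.5 UB libraries (0.025, adjusted p = 0.93). E12.5 UB replicate 1 was the lowest library for both, and the other 3 lay within the eUB range of *Epcam* and above that of *Cdh1*. *Krt19* was higher (log2 fold change 1.5), as was *Cldn4*, a barrier-forming claudin at 1191 to 1539 in eUBs (0.91). *Cldn8*, a claudin of the collecting duct, was 35.5, 28.6, 27.9 and 19.9 in the eUB libraries and 66.7, 165, 167 and 151 in the E12.5 UB libraries and lower (-2.19, SE 0.3), and *Krt7* (-0.95) and *Ocln* (-0.52) were lower too. Without replicate 1, 2 genes of the list were higher and 11 lower, and 3 were higher and 11 lower against UB cells titled E11.5.

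An exception among adhesion genes was *Cdh2*, which encodes N-cadherin, a cadherin of mesenchyme and neural tissue that is also present in some renal epithelia. It was 139, 177, 159 and 152 in the eUB libraries and 69.6, 9.37, 8.87 and 15.4 in the E12.5 UB libraries. All eUB libraries were above all E12.5 UB libraries, among which replicate 1 was several times the others, and the log2 fold change was 3.08 (SE 0.55, limma adjusted p = 0.002) and 3.72 without that replicate. In the list of 12 mesenchymal and cadherin switch genes it was the only one called higher with all libraries, and 6 were called higher without replicate 1. *Cdh6* ran from 0.994 to 1.71 in eUBs and from 3.75 to 14.4 in E12.5 UBs (log2 fold change -1.52).

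Hox genes, which record position along the body axis, went in both directions. Of 39 listed 29 were tested, 3 were higher and 14 lower, and the median log2 fold change was -0.56, whereas without E12.5 UB replicate 1 there were 6 higher and 16 lower. Of the 14 lower 5 (*Hoxa10*, *Hoxa11*, *Hoxc10*, *Hoxd10* and *Hoxd11*) were under 1 normalised CPM in every eUB library and passed the filter through the E12.5 UB libraries, while 2 (*Hoxc5*, called higher, and *Hoxc6*) passed it mainly through the eUB libraries, so these counts give no support for a direction. Of the other 22 tested 2 were higher and 9 lower. The lower ones included *Hoxa9*, *Hoxa10*, *Hoxa11*, *Hoxc10*, *Hoxd9*, *Hoxd10* and *Hoxd11*, with log2 fold changes from -3.69 to -1.58. *Hoxd11*, which with its paralogues is needed for the metanephric kidney, was 0, 0, 0 and 0.0354 in the eUB libraries and 42.9, 5.73, 5.12 and 15.1 in the E12.5 UB libraries. *Hoxa10* was 0.520, 0.426, 0.730 and 0.992 in the eUB libraries and 65.7, 6.39, 4.66 and 12.8 in the E12.5 UB libraries. Both were under 1 normalised CPM in every eUB library and above 4 in every E12.5 UB library, with log2 fold changes of -3.69 and -3.08, or -3.11 and -2.33 without E12.5 UB replicate 1. *Hoxd1* ran from 2.62 to 3.73 in eUBs and from 21.2 to 39.4 in E12.5 UBs (-2.91). The genes called higher with all 8 libraries were *Hoxc5*, *Hoxc4* and *Hoxa4*, of more anterior groups. *Hoxc5* was 30.7, 21.0, 16.7 and 17.9 in the eUB libraries and 5.44, 0.189, 0.274 and 0.821 in the E12.5 UB libraries (log2 fold change 3.42, SE 0.5), *Hoxc4* ran from 16.9 to 22.6 in eUBs and was 18.3, 1.66, 2.51 and 2.80 in the E12.5 UB libraries (2.06), and *Hoxa4* ran from 7.34 to 8.80 and from 2.66 to 5.49 (1.0). Of these 3, *Hoxc4* overlapped, through E12.5 UB replicate 1, and was not called by edgeR on the recovered reads (adjusted p = 0.08). Part of *Hoxc5* overlaps *Hoxc10* on the same strand, so reads there cannot be assigned to either with certainty. *Hoxa10* averaged 191 in E12.5 nephron progenitor (NP) cells and 176 in E12.5 stromal progenitor (SP) cells, whose markers were also high in E12.5 UB replicate 1, and their part in its level there was not tested.

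Imprinted genes were called in both directions. Of 32 tested, 7 were higher and 10 lower, with a median log2 fold change of -0.11 and a range down to that of *Grb10*. Of the 10 lower 3, among them *Grb10*, reached 1 normalised CPM in at most 1 eUB library. These passed the filter mainly through the E12.5 UB libraries. Of the other 29 tested 7 were higher and 7 lower. Beside *Grb10*, *Igf2r* and *Cdkn1c*, which are maternally expressed in most tissues, the leading changes in the other direction were in paternally expressed genes. *Peg10* was 1502, 1516, 1489 and 1379 in the eUB libraries and 484, 219, 203 and 205 in the E12.5 UB libraries (log2 fold change 2.51, SE 0.26). Its neighbour *Sgce* was 119, 101, 91.6 and 104 in the eUB libraries and 20.6, 15.9, 13.1 and 15.7 in the E12.5 UB libraries (2.61, SE 0.14), and *Impact* ran from 83.4 to 105 in eUBs and was 53.1, 15.4, 13.9 and 13.8 in E12.5 UBs (2.22). The groups did not overlap in any of them, and E12.5 UB replicate 1 was the highest of its group in all 3. Each imprinted gene named here was chosen for the size of its change among the called members, and the parental alleles were not measured.

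Among 40 transcription factors of other embryonic lineages, 27 did not reach the filter on low values. Of the 13 tested 6 were higher and none lower, and without E12.5 UB replicate 1 there were 9 higher and 1 lower. Of these 13 genes 9, among them all 6 called higher, were at 1 normalised CPM or more in at most 1 E12.5 UB library and so passed the filter mainly through the eUB libraries, and their counts give no support for a direction. The leading members were *Lmx1a* and *Nkx6-1*, described above, and *Zic1*, which was 24.4, 33.9, 29.2 and 30.1 in the eUB libraries and 26.8, 0, 0 and 0 in the E12.5 UB libraries. *Zic1* overlapped between the groups only through E12.5 UB replicate 1. Its log2 fold change was 3.72 (limma adjusted p = 0.014) with that library and 4.92 (adjusted p = 1.4e-07) without it, and edgeR on the recovered reads of all 8 libraries did not call it (adjusted p = 0.27). The mean log2 level of the 13 genes was 3.61 to 3.82 in the eUB libraries, 3.48 in E12.5 UB replicate 1 and 1.71 to 1.80 in replicates 2 to 4.

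The core pluripotency genes, *Pou5f1*, *Nanog* and *Sox2* among them, were below the filter, and 6 of 19 genes of that list were tested, with 3 higher and 2 lower. Of the 3 higher 1, *Zfp42*, reached 1 normalised CPM in at most 1 E12.5 UB library and passed the filter mainly through the eUB libraries. Of the other 5 tested 2 were higher and 2 lower. *Zfp42*, a marker of naive pluripotency, was 2.0, 3.23, 2.53 and 2.41 in the eUB libraries and 2.09, 0.0473, 0.0457 and 0.0966 in the E12.5 UB libraries, low in all libraries, and E12.5 UB replicate 1 was within the eUB range (log2 fold change 1.34). *Klf4*, which differentiated epithelia also use, was 116, 146, 143 and 164 in the eUB libraries and 35.0, 26.0, 32.9 and 32.6 in the E12.5 UB libraries (2.13, SE 0.13), with no overlap. *Lin28b*, an RNA-binding protein of early developmental stages, was higher (0.82) and *Hmga2*, a chromatin protein of the same stages, lower (-0.47). *Tfcp2l1*, a factor of naive stem cells that also patterns the collecting duct, was 82.1, 101, 96.8 and 69.4 in the eUB libraries and 155, 413, 461 and 421 in the E12.5 UB libraries and lower (-1.94, SE 0.32).

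**Figure D3:**
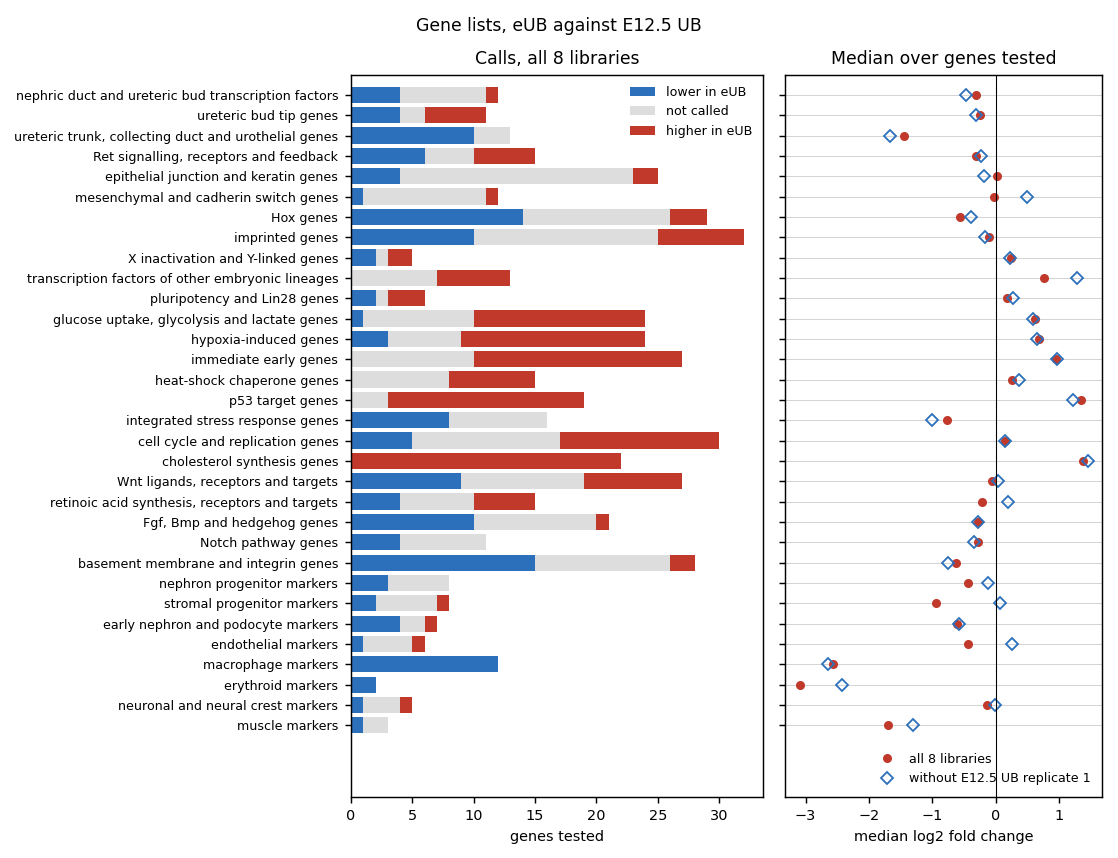
Left, the number of genes tested in each of 32 gene lists that were called higher, called lower or not called in eUBs against E12.5 UBs (limma, adjusted p under 0.05). Right, the median log2 fold change of the same genes with all 8 libraries (filled) and without E12.5 UB replicate 1 (open). The 22 cholesterol synthesis genes were all called higher, and the 12 macrophage markers all lower.

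The genes of cholesterol synthesis and uptake were all higher in eUBs. Of 22 genes, 22 were called higher, with a median log2 fold change of 1.37, and the count was the same without E12.5 UB replicate 1. The pathway builds cholesterol from acetyl-CoA through mevalonate, and its genes are switched on together by SREBP2 when sterols are low. *Insig1* (ENSMUSG00000045294, chromosome 5, 28071363 to 28078662), which retains SREBP in the endoplasmic reticulum, was 397, 399, 349 and 379 in the eUB libraries and 147, 49.0, 52.6 and 34.1 in the E12.5 UB libraries (log2 fold change 2.64, SE 0.37, limma adjusted p = 6.0e-04). *Msmo1*, a sterol demethylase, was 472, 449.7, 421 and 490.0 in the eUB libraries and 137, 88.3, 93.0 and 65.9 in the E12.5 UB libraries (2.29, SE 0.19). Of the 22 genes none overlapped between groups (42.6% of all genes did not), and E12.5 UB replicate 1 was the highest of its group in both named. Without that replicate their log2 fold changes were 3.07 and 2.48. Against UB cells titled E11.5 (32.1% of all genes called higher and 28.5% lower) the median of the list was 0.80, with 17 genes higher and 2 lower, and *Insig1* and *Msmo1* were at 0.94 and 1.02.

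Since these genes moved together, their promoters were read from the RefSeq promoter table of GRCm38.p6, as the 250 bases before each annotated start. A window was found for 14 of the 22 genes. The letters CCAAT, the recognition core of the factor NF-Y, or their reverse complement ATTGG, were in the windows of 14 of these 14 genes, against 37.5% of all 27025 genes with a window, 40.7% of 9884 tested genes with one and 42.9% of those called higher in eUBs. The sterol element TCACNCCAC, searched on both strands, was in 1 of the 14, that of *Hmgcs1*, against 1.22% of all genes. The windows of the 3 genes with the largest fold change among those with the letters are shown, with CCAAT or ATTGG in capitals, to let the common element be seen in its place. They lie at chr5:28071162-28071411 (plus strand), chr8:64733579-64733828 (minus strand) and chr8:122443423-122443672 (minus strand), each written in the direction of its gene.
Insig1: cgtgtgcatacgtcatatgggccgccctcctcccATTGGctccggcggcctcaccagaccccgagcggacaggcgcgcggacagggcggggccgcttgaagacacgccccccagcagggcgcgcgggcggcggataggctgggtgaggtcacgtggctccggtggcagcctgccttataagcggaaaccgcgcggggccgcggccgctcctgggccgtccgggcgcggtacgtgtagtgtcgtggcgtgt
Msmo1: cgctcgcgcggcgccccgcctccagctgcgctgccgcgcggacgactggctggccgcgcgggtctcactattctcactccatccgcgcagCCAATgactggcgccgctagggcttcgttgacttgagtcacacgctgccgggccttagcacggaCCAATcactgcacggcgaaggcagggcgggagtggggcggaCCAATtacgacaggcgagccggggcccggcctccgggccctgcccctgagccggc
Mvd: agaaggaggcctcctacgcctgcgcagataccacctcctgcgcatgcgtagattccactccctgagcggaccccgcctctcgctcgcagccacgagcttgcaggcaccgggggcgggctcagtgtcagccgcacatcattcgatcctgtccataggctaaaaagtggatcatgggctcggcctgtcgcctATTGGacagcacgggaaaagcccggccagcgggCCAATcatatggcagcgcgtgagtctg
The window of *Hmgcs1*, at chr13:119690101-119690350 (plus strand), is shown with the sterol element in capitals.
Hmgcs1: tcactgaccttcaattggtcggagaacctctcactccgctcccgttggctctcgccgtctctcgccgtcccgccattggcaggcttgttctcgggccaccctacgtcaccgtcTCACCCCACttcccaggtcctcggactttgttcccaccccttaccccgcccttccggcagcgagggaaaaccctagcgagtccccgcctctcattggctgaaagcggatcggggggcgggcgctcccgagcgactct
*Msmo1* holds the letters 3 times, *Mvd* 2 times and *Insig1* once. Letters in a window are a description of sequence, and binding was not measured.

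Genes of glucose use and of the response to low oxygen were mostly higher. Of 24 genes of glucose uptake, glycolysis and lactate handling 14 were higher and 1 lower, or 15 and 3 without E12.5 UB replicate 1 (median log2 fold change 0.62), and of 24 hypoxia-induced genes 15 were higher and 3 lower (median 0.68). The lists share members, such as *Slc2a3*, which encodes the glucose transporter GLUT3. It was 1267, 935, 769.7 and 1058 in the eUB libraries and 222, 89.2, 91.3 and 98.2 in the E12.5 UB libraries (log2 fold change 3.09, SE 0.29, limma adjusted p = 7.1e-05). Every eUB library was more than 3 times the highest E12.5 UB library, which was replicate 1. *Aldoc*, an aldolase of glycolysis, was 76.7, 54.1, 46.2 and 54.6 in the eUB libraries and 17.6, 6.72, 8.50 and 7.39 in the E12.5 UB libraries (2.49, SE 0.28), and *Pfkp*, a phosphofructokinase, ran from 59.4 to 85.3 and from 22.3 to 44.2 (1.19). *Hk1*, a hexokinase present in most tissues, was the 1 called lower with all 8 libraries, at -0.66.

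*Car9*, the carbonic anhydrase that serves as a marker of hypoxic tissue, was 17.3, 10.8, 10.5 and 14.9 in the eUB libraries and 5.53, 0.331, 0.411 and 0.531 in the E12.5 UB libraries (log2 fold change 2.76, SE 0.48, and 3.31 without E12.5 UB replicate 1). *Stc1*, a secreted stanniocalcin, was 153, 194, 173 and 166 in the eUB libraries and 22.2, 37.4, 32.9 and 39.8 in the E12.5 UB libraries (2.37, SE 0.17). Both were without overlap. *Car9* reached 1 normalised CPM in at most 1 E12.5 UB library and so passed the filter mainly through the eUB libraries. *Vegfa*, the angiogenic ligand that hypoxia induces in most tissues, went the other way, with 140.3 to 241 in eUBs and 217 to 343 in E12.5 UBs (-0.65, adjusted p = 0.025), and its groups overlapped. *Stc2* (-1.17) and *Mxi1* (-0.83) were lower as well.

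The core letters ACGTG of the hypoxia response element, or their reverse complement CACGT, lay in the promoter windows of 12 of 18 hypoxia-induced genes (66.7%) and of 11 of 23 genes of glucose use (47.8%), against 18.5% of all genes with a window and 25.1% of those tested. Genes are often put on hypoxia lists because they hold such an element, so these shares describe the lists and not the samples. The windows of *Car9* at chr4:43506776-43507025 (plus strand), *Bnip3* at chr7:138909507-138909756 (minus strand) and *P4ha2* at chr11:54100674-54100923 (plus strand), the 3 members with the letters and the largest fold changes, are shown with them in capitals.
Car9: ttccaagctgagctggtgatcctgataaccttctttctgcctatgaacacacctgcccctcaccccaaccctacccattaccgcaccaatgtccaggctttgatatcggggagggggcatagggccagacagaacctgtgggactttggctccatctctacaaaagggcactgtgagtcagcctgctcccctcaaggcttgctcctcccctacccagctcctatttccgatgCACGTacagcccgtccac
Bnip3: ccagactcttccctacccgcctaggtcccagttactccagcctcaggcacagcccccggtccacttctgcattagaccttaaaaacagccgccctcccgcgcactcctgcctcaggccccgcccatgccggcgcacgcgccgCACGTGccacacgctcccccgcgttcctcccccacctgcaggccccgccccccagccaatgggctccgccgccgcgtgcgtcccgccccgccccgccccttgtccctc
P4ha2: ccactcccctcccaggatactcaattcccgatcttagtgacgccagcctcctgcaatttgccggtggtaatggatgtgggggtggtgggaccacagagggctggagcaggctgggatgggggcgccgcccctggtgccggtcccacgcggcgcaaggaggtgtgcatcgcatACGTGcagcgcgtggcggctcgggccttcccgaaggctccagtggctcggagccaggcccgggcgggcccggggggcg
In *Car9* the match begins 18 bases before the annotated start, and in *Bnip3* the letters of the 2 strands overlap, so that 2 matches share bases.

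Target genes of p53 were higher almost throughout. Of 19 tested, 16 were higher and none lower, with a median log2 fold change of 1.33, and without E12.5 UB replicate 1 there were 16 higher and 1 lower. p53 is the transcription factor that answers DNA damage and other stress with arrest, repair or death. *Ccng1*, an atypical cyclin, was 330.2, 299, 271 and 336 in the eUB libraries and 32.1, 38.1, 46.2 and 46.7 in the E12.5 UB libraries (log2 fold change 2.90, SE 0.13, limma adjusted p = 1.6e-06). *Trp53inp1*, a nuclear partner of p53, was 110.0, 114.6, 105 and 119 in the eUB libraries and 18.2, 14.0, 16 and 16.6 in the E12.5 UB libraries (2.72, SE 0.094). *Cdkn1a*, the inhibitor p21 of cyclin-dependent kinases, was 763, 704, 597 and 709 in the eUB libraries and 114, 156, 183 and 219 in the E12.5 UB libraries (2.07, SE 0.18). In each of the 3, and in *Eda2r*, all eUB libraries were above all E12.5 UB libraries, and the log2 fold changes without replicate 1 were 2.80, 2.78, 1.90 and 4.21.

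Genes of the cell cycle did not move in a single direction. Of 30 genes of cycling and replication 13 were higher and 5 lower, with a median log2 fold change of 0.15. The B cyclins *Ccnb1* (0.54) and *Ccnb2* (0.48) were slightly higher, and the D cyclins *Ccnd1* (-0.65) and *Ccnd3* (-1.22) were lower. *Ccnd1* was 447, 402, 365 and 373 in the eUB libraries and 597, 614, 651 and 618 in the E12.5 UB libraries, with no overlap. Of the kinase inhibitors, *Cdkn1a* was thus higher and *Cdkn1c* lower in eUBs.

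Many immediate early genes, which cells induce within minutes of stimulation or dissociation, were higher. Of 27 tested, 17 were higher and none lower, with a median log2 fold change of 0.95. *Fosb* was 346, 409, 483 and 552 in the eUB libraries and 127, 51.1, 48.7 and 49.9 in the E12.5 UB libraries (log2 fold change 2.79, SE 0.3), *Egr2* was 68.1, 123, 117 and 129.9 in the eUB libraries and 37.3, 20.1, 18.8 and 18.0 in the E12.5 UB libraries (2.19, SE 0.27), and *Klf2* was 98.8, 70.8, 72.5 and 82.9 in the eUB libraries and 8.84, 5.92, 7.18 and 8.02 in the E12.5 UB libraries (3.276, SE 0.15). No overlap was seen in these 3, and the level in E12.5 UB replicate 1 was the highest of its group in each. The mean log2 level of the list was 7.30 to 7.80 in eUBs, 6.70 in E12.5 UB replicate 1 and 6.32 to 6.48 in the others.

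Heat-shock chaperone genes varied among the eUB libraries, with a mean log2 level from 6.59 to 7.47. Of 15 tested, 7 were higher and none lower, with a median log2 fold change of 0.26. *Hspa1b* was 40.1, 131, 168 and 282 in the eUB libraries and 65.7, 11.1, 10.4 and 14.7 in the E12.5 UB libraries and its near-identical neighbour *Hspa1a* was 16.9, 68.4, 101 and 162 in the eUB libraries and 43.2, 5.59, 6.17 and 7.73 in the E12.5 UB libraries. eUB replicate 1 was lower than E12.5 UB replicate 1 in both genes, and the eUB libraries spanned a wide range (log2 fold changes 2.7, SE 0.69, and 2.54, SE 0.78). The transcripts of the pair are 99.2% identical, so the split of reads between them is uncertain. *Dnajb1*, a partner of these chaperones, was 203, 305, 289 and 385 in the eUB libraries and 155, 56.2, 59.8 and 66.3 in the E12.5 UB libraries (1.90, SE 0.32). Against UB cells titled E11.5, whose mean log2 level was 7.72 to 7.81, the list lay the other way, with 2 genes higher and 10 lower and a median of -0.50, and *Hspa1b* had a log2 fold change of -1.08.

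Several genes of the integrated stress response were lower. Of 16 tested none was higher and 8 were lower, or 11 without E12.5 UB replicate 1, with a median log2 fold change of -0.77. This pathway answers shortage of amino acids and misfolded protein through the factor ATF4. *Chac1*, which degrades glutathione, was 8.02, 11.6, 9.75 and 9.84 in the eUB libraries and 64.3, 102, 122 and 108 in the E12.5 UB libraries (log2 fold change -3.18, SE 0.2, limma adjusted p = 8.1e-06), and *Trib3*, a pseudokinase induced by ATF4, was 10.2, 11.8, 11 and 13.4 in the eUB libraries and 38.6, 114, 124 and 107 in the E12.5 UB libraries (-2.82, SE 0.33). *Slc7a5*, an importer of large neutral amino acids, ran from 104 to 130.2 in eUBs and from 255 to 516 in E12.5 UBs (-1.84). The groups were separate for each gene, with E12.5 UB replicate 1 the lowest ex-fetu library in all 3.

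**Figure D4:**
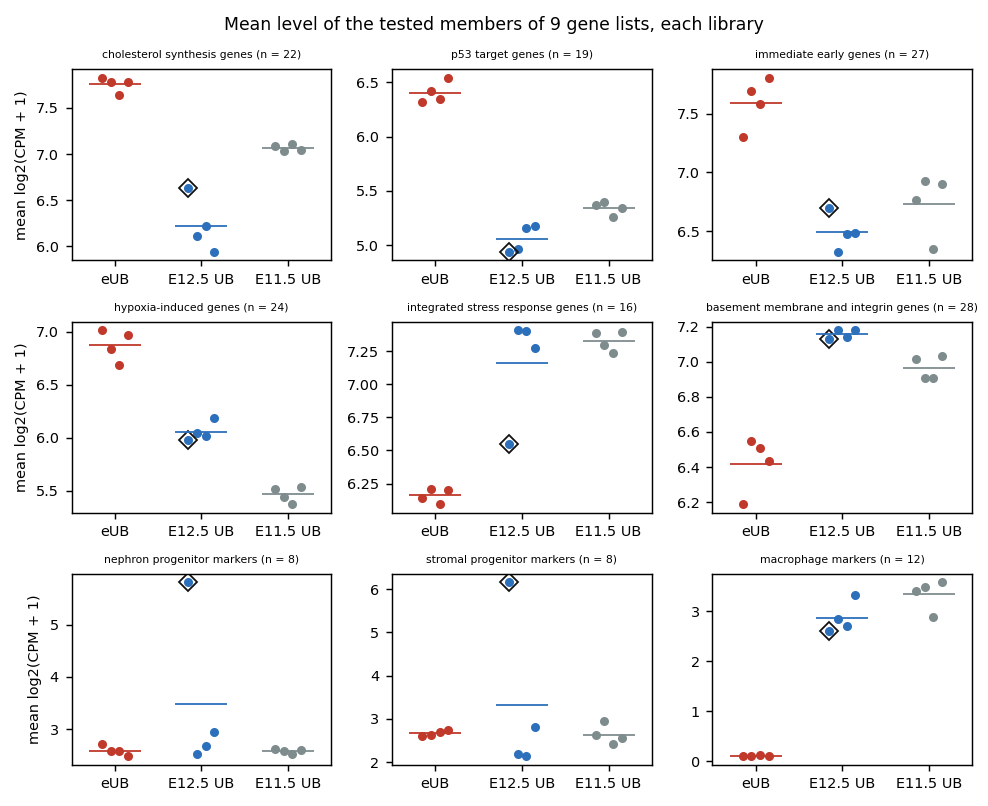
Mean log2(normalised CPM + 1) over the tested members of 9 gene lists in each eUB, E12.5 UB and E11.5 UB library, with lines for the group means and a diamond for E12.5 UB replicate 1. The axes differ between panels. The cholesterol synthesis list lies between 7.64 and 7.82 in eUBs and between 5.94 and 6.63 in E12.5 UBs, and the nephron and stromal progenitor markers are raised in the diamond alone.

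Wnt ligands, receptors and targets were split. Of 27 tested 8 were higher and 9 lower, with a median log2 fold change of -0.06, or 0.03 without E12.5 UB replicate 1. The listed members highest above E12.5 UBs were targets and feedback inhibitors of the canonical pathway, and the ligand *Wnt2b*, described above, which the list does not hold, was higher as well. Beside *Sp5*, *Notum*, a secreted enzyme that inactivates Wnt ligands, was 80.4, 92.4, 85.8 and 88.5 in the eUB libraries and 11.5, 2.94, 3.79 and 4.06 in the E12.5 UB libraries (log2 fold change 3.90, SE 0.32, limma adjusted p = 3.1e-05), and *Nkd1*, an intracellular inhibitor, was 106, 131, 127 and 126 in the eUB libraries and 55.4, 21.5, 22.5 and 28.3 in the E12.5 UB libraries (2.01, SE 0.26). Neither overlapped between groups. The listed members furthest below were the ligands *Wnt4* (-1.64), *Wnt9b* and *Wnt7b*. *Wnt4*, which marks induced nephron mesenchyme as well as bud, was 5.27, 9.09, 7.77 and 7.4 in the eUB libraries and 69.3, 13.9, 18.8 and 20.2 in the E12.5 UB libraries, and its log2 fold change was -1.16 without E12.5 UB replicate 1. The letters CTTTGAT, part of the recognition sequence of TCF factors, were in the windows of 2 of 17 genes of the list, *Sp5* and *Wnt11* (11.8%), against 3.72% of all genes. The eUB cells had been cultured with CHIR99021, which activates this pathway by inhibiting GSK3, and for the E12.5 UB cells no such treatment is stated. The part of culture was not tested.

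Genes of retinoic acid metabolism and response were called in both directions. Of 15 tested 5 were higher and 4 lower, with a median log2 fold change of -0.22. Without E12.5 UB replicate 1 there were 6 higher and 6 lower, and the median was 0.19. Higher were *Aldh1a3*, which makes retinoic acid, at 787, 917, 874 and 818 in the eUB libraries and 119.9, 121, 145 and 144 in the E12.5 UB libraries (log2 fold change 2.68, SE 0.095), *Cyp26b1*, which degrades it (1.41), and *Rdh10*, which makes its precursor (0.90). Lower were the receptors *Rarg*, with 16.6 to 19.2 in eUBs and 31.6 to 69.4 in E12.5 UBs (-1.52), and *Rara* (-0.77), and the binding protein *Crabp2* (-1.07). All 6 were without overlap between the groups.

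In the list of Fgf, Bmp and hedgehog genes 1 of 21 tested was higher and 10 lower, with a median log2 fold change of -0.28. Without E12.5 UB replicate 1 there were 4 higher and 11 lower. Of the 10 lower 3 were under 1 normalised CPM in every eUB library and passed the filter through the E12.5 UB libraries. The 1 called higher with all 8 libraries was *Fgf9* (0.53), a ligand that maintains nephron progenitors and was itself added to the eUB cultures as protein. *Fgf8*, a ligand of nascent nephrons, was 0.817, 0.603, 0.601 and 0.460 in the eUB libraries and 9.46, 6.49, 6.58 and 12.7 in the E12.5 UB libraries (-2.56, SE 0.21), and the receptor gene *Fgfr3* was 0.594, 0.568, 0.429 and 0.673 in the eUB libraries and 12.9, 5.02, 5.48 and 6.62 in the E12.5 UB libraries (-2.36, SE 0.25). Both were under 1 normalised CPM in all eUB libraries and above 5 in all E12.5 UB libraries. In the UB libraries titled E11.5 *Fgf8* was 0.258, 2.29, 0.189 and 0.107 normalised CPM, a mean of 0.711 against 0.620 in eUBs, and it was below the filter of that comparison. *Shh*, the hedgehog ligand of the ureter and medullary duct, ran from 0.816 to 1.67 in eUBs and from 2.58 to 12.7 in E12.5 UBs (-2.0, and -2.44 without replicate 1). Of 11 Notch pathway genes none was higher and 4 were lower, or 1 higher and 5 lower without replicate 1. *Lfng*, a glycosyltransferase that tunes Notch receptors, was 8.02, 5.79, 5.15 and 5.95 in the eUB libraries and 30.0, 18.5, 22.3 and 27.0 in the E12.5 UB libraries (-1.81, SE 0.18). The ligand gene *Dll1* (-1.01) and the target gene *Heyl* (-1.0) were lower too, and *Dll1* was -0.67 without replicate 1.

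Genes of the basement membrane, on which the bud rests, were more often lower than higher. Of 28 tested 2 were higher and 15 lower, with a median log2 fold change of -0.62, and without E12.5 UB replicate 1 there were 4 higher and 20 lower. *Lama1*, the alpha chain of laminin-111, was 72.0, 129.9, 123 and 106 in the eUB libraries and 379, 660.5, 666 and 568 in the E12.5 UB libraries (log2 fold change -2.39, SE 0.23, limma adjusted p = 7.7e-05). No eUB library reached the ex-fetu range. *Lama4*, a laminin chain of vessels and mesenchyme, was lower at -1.94, or -1.32 without replicate 1. The integrin genes *Itgb4* and *Itgb1*, whose products bind laminin, were the 2 members higher in eUBs. *Itgb4* was 30.1, 39.0, 42.3 and 50.4 in the eUB libraries and 7.04, 15.1, 14.3 and 13.9 in the E12.5 UB libraries (1.64, SE 0.24) and *Itgb1* ran from 627 to 681 and from 407 to 441 (0.64). The eUB cells had been grown with Matrigel, a preparation rich in laminin, and none is stated for the ex-fetu cells, and its part was not tested.

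Markers of macrophages separated the groups completely. All 12 tested of 13 listed were lower in eUBs, with a median log2 fold change of -2.57. *Csf1r*, the receptor that macrophages need, was 0.149, 0.248, 0.215 and 0.106 in the eUB libraries and 17.6, 17.4, 18.0 and 26.1 in the E12.5 UB libraries (log2 fold change -4.12, SE 0.15). The complement gene *C1qc* was 0 in all eUB libraries and 9.91, 9.33, 10.3 and 16.2 in the E12.5 UB libraries, and *C1qa* was 0 and 6.06, 10.9, 10.3 and 14.4, so that at the limit of 3 reads the E12.5 UB means were at least 81.1-fold and 73.9-fold higher. *Mrc1* ran from 0.497 to 0.687 in eUBs and from 14.9 to 26.3 in E12.5 UBs (-3.54). The summed level of the 13 markers was 1.14 to 1.55 in eUBs, 79.2 in E12.5 UB replicate 1 and 84.5 to 139 in the others (exact two-sided permutation p = 0.0286, the smallest that 4 against 4 samples allow, and 0.0762 adjusted over the 8 marker lists summed). *Cx3cr1*, *Fcgr1*, *C1qa*, *C1qc* and *Tyrobp* were at 0 in all eUB libraries. Members that passed the filter on low values did so through the E12.5 UB libraries, so the count is a description.

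In the other marker lists E12.5 UB replicate 1 often set the range of its group. The summed erythroid markers were 0 to 0.106 in eUBs, 91.5 in E12.5 UB replicate 1 and 6.22 to 39.9 in the others, and the muscle markers 4.60 to 9.45, 122 and 15.0 to 23.2 (both permutation p = 0.0286, adjusted p = 0.0762). The embryonic globin *Hbb-y* was 0 in every eUB library and 56.8, 6.01, 3.70 and 23.9 in E12.5 UBs, and *Hba-x* was 0 and 19, 1.09, 1.42 and 4.88, so that the E12.5 UB means were at least 160.2-fold and 46.7-fold higher, or 79.4-fold and 17.4-fold without replicate 1. *Tagln*, an actin-binding protein of smooth muscle, ran from 2.15 to 7.51 and from 11.5 to 30.7 (log2 fold change -1.70). It was the 1 of 3 muscle markers tested that was called, and without replicate 1 there were 2, both lower. The nephron progenitor markers summed to 65.9 to 80.6 in eUBs, 569 in E12.5 UB replicate 1 and 58.2 to 90.6 in the others (permutation p = 0.54), and the endothelial markers to 27.5 to 30.2, 161 and 24 to 28.9 (permutation p = 0.83). *Cdh5*, *Tie1* and *Emcn*, which define endothelium, were at 0 in all eUB libraries, while *Cdh5* was 26.1, 0.757, 1.83 and 1.40 in the E12.5 UB libraries. *Tek*, the angiopoietin receptor, was the endothelial marker called higher, with 8.24, 9.16, 10.2 and 11.6 in the eUB libraries and 4.75, 0.331, 0.640 and 1.26 in the E12.5 UB libraries (2.22, SE 0.4), and *Egfl7* was lower (-0.48).

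The difference in the summed stromal markers changed direction without that library, as did those of the nephron progenitor and endothelial markers. Of 8 tested 1 was higher and 2 lower, or 3 and 3 without it. They summed to 70.4 to 90.2 in eUBs, 1016 in E12.5 UB replicate 1 and 36.1 to 64.3 in the others (permutation p = 1), so that the eUB libraries were all above E12.5 UB replicates 2 to 4. *Foxd1* was 29.5, 16.6, 15.0 and 19.3 in the eUB libraries and 15.4, 1.89, 1.78 and 3.77 in the E12.5 UB libraries (log2 fold change 2.03, or 2.60 without replicate 1), whereas *Col1a1* ran from 3.71 to 4.78 and was 178, 9.66, 10.1 and 20.1 (-2.31, or -1.37) and *Postn* was at -1.65, or -1.11. *Pdgfra* was not called (-1.03, limma adjusted p = 0.34). Of the 2 stromal markers called lower 1 was under 1 normalised CPM in every eUB library and passed the filter through the E12.5 UB libraries. Of the 8 nephron progenitor markers tested none was higher and 3 were lower, and without replicate 1 3 were higher and 3 lower. With all libraries 2 of the 3 lower were under 1 normalised CPM in every eUB library and passed the filter through the E12.5 UB libraries. Of the other 6 tested 1 was lower and none higher. *Wt1* was 0.149, 0.248, 0.129 and 0.142 in the eUB libraries and 104, 3.27, 3.66 and 4.97 in the E12.5 UB libraries (-3.18, or -2.08), *Six2* ran from 1.24 to 2.52 in eUBs (-2.90, or -2.14), *Meox1* from 0.106 to 0.472 (-1.96, or -1.13), and *Cited1* was 23.3, 13.9, 13.1 and 12.7 in the eUB libraries and 23.1, 13.9, 17.8 and 16.5 in the E12.5 UB libraries (-0.19, adjusted p = 0.51). With or without replicate 1, *Wt1* and *Six2* were lower in eUBs than in E12.5 UBs.

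Markers of early nephrons and podocytes, of which 1 of 7 tested was higher and 4 lower, summed to 342 to 455 in eUBs and 397 to 463 in E12.5 UBs (permutation p = 0.43). Of the 4 lower 1 was under 1 normalised CPM in every eUB library and passed the filter through the E12.5 UB libraries. The neuronal and neural crest markers summed to 30.6 to 39.0 in eUBs, 42.4 in E12.5 UB replicate 1 and 22.5 to 29.7 in the others (permutation p = 0.4). Within that list *Sox10*, the defining factor of neural crest and glia and a relative of *Sox8* and *Sox9*, was 18.9, 14.1, 15.2 and 18.2 in the eUB libraries and 0.737, 0.237, 0.320 and 0.193 in the E12.5 UB libraries (log2 fold change 3.69, SE 0.16, limma adjusted p = 1.4e-06), with no overlap. *Dcx*, of migrating neurons, ran from 0.708 to 1.42 and from 3.88 to 14.5 (-1.77), and *Elavl4* from 1.26 to 1.93 and from 0.821 to 4.99 (-0.00095, adjusted p = 1). The part of other cell types in the lists above was not tested.

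The same contrast of mESC-derived and E12.5 cells exists for nephron progenitors (iNP against NP) and stromal progenitors (iSP against SP), with no library in common, so the UB difference could be tested against each by an interaction term in a limma fit of 24 libraries. Of 15644 genes in that fit 40.4% were called for UB, 51.9% for NP and 55.6% for SP. The UB effect and the NP effect differed in 5176 (33.1%), and the UB effect and the SP effect in 6095 (39%). In 1941 genes (12.4%) the UB contrast was called and differed in the same sense from both. E12.5 UB replicate 1 is part of this fit, and other libraries stand apart too. E12.5 SP replicate 1 correlated with its group at r = 0.978 to 0.983 (the others at 0.994 to 0.996), E12.5 NP replicate 1 at 0.977 to 0.988 (0.988 to 0.998) and iNP replicate 2 at 0.984 to 0.985 (0.997 to 0.998). The lists below are therefore also given without replicate 1 of E12.5 UB, NP and SP, the library of each group least like the rest, an alternative chosen after seeing the data. The iNP and iSP cells came from another mESC line, E14, so line and cell type cannot be told apart in these differences.

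The p53 targets were higher in eUBs but not as a group in the other mESC-derived cells. Of the 20 genes in this fit 16 were higher and none lower for UB, 4 higher and 7 lower for NP and 2 higher and 13 lower for SP, where 20.9%, 29.3% and 30.1% of all genes were called higher and 19.5%, 22.6% and 25.6% lower. The median log2 fold changes were 1.31, -0.31 and -0.79, and the UB effect was more positive than the NP effect in 13 of 20 and than the SP effect in 17 of 20, against 14.1% and 18.1% of all genes (19% and 20.8% were more negative). *Ccng1* was 21.0 to 30.9 in iNP and 19.2 to 28.5 in E12.5 NP cells, and the UB effect exceeded the NP effect by 2.75 (limma adjusted p = 3.5e-09) and the SP effect by 2.98. Immediate early genes had medians of 0.95, -0.45 and -1.76, with the UB effect more positive than the NP effect in 17 of 27 and than the SP effect in 24 of 27. Glycolysis genes went the other way, with medians of 0.62 for UB, 1.23 for NP and 1.60 for SP and a UB effect more negative than the NP effect in 16 of 24 genes and than the SP effect in 16 of 24. Of the 22 cholesterol synthesis genes 22 were higher for UB, 18 for NP and 8 for SP, the last a share near that of all genes, with medians of 1.37, 0.94 and 0.54. Of 16 integrated stress response genes 7 were lower for UB, 6 for NP and 8 for SP, and none, 1 and 1 were higher. Their medians were -0.77, -0.57 and -0.84, and the UB effect differed from the NP effect in 2 of 16 and from the SP effect in 3 of 16.

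Without replicate 1 of E12.5 UB, NP and SP the medians for UB, NP and SP were 1.16, -0.20 and -0.80 for the p53 targets, with a more positive UB effect than for NP in 15 of 20 and than for SP in 19 of 20 (18.2% and 21.9% of all genes). For the immediate early genes they were 0.97, -0.31 and -1.56, with 20 and 25 of 27 more positive. For the glycolysis genes they were 0.58, 1.22 and 1.57, with 15 and 17 of 24 more negative (20.7% and 22.5% of all genes). Of the 22 cholesterol synthesis genes 22 were then higher for UB, 21 for NP and 19 for SP, against 25.6%, 29.9% and 31.1% of all genes, where with all libraries 8 had been higher for SP, and their medians were 1.45, 0.98 and 1.04. The UB effect on them was more positive than the NP effect in 9 of 22 in place of 4, and than the SP effect in 14 in place of 11. Of the integrated stress response genes 11, 10 and 10 of 16 were lower, against 23.7%, 25.2% and 27.7% of all genes, with medians of -1.01, -1.01 and -1.28, and the UB effect was more positive than the NP effect in 3 and more negative in 2, and than the SP effect in 3 and in 4.

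*Grb10* was low in all 3 mESC-derived types, and most in eUBs. It averaged 155 in iNP against 1817 in NP and 132 in iSP against 1240.1 in SP cells, and the UB effect minus the NP effect was -5.40 and minus the SP effect -5.73 on the log2 scale (adjusted p = 1.4e-13 and 2.0e-14). *Igf2r* was lower in eUBs but averaged 781 in iNP against 281 in NP cells, so that the UB effect minus the NP effect was -5.59 (adjusted p = 3.4e-12). *Xist* was low in all mESC-derived types, and the UB effect was not found to differ from the NP effect (-0.04, adjusted p = 0.98) or the SP effect (0.71, adjusted p = 0.47). These 3 genes are among those chosen for their UB difference, which favours a difference from the other effects. The summed macrophage markers were at most 2.74 in any iNP, iSP, E12.5 NP or E12.5 SP library, so their UB effect is not set against the others.

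**Figure D5:**
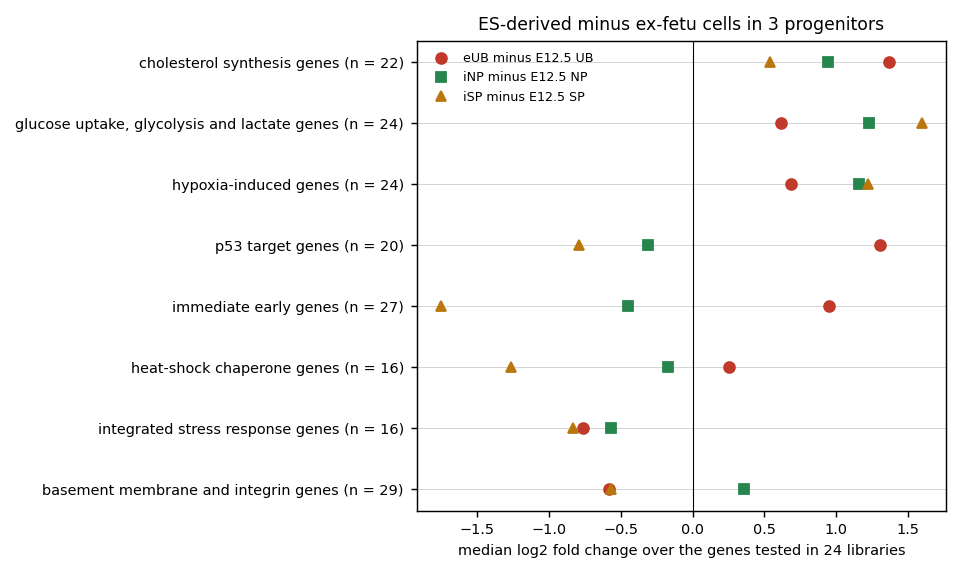
Median log2 fold change of mESC-derived against E12.5 cells over the members of each gene list, for the UB (circles), NP (squares) and SP (triangles) contrasts in the fit of 24 libraries, with the number of genes in brackets. The p53 targets lie at 1.31 for UB and at -0.31 and -0.79 for NP and SP, while the cholesterol synthesis genes lie above 0 for all 3.

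The choice of ex-fetu age was examined with the UB libraries titled E11.5, against which 8445 of 13956 genes (60.5%) were called. Between the ex-fetu UB libraries titled E12.5 and E11.5, 3648 of 13772 genes (26.5%) were called, and 6031 (43.8%) without E12.5 UB replicate 1. Genes of the comparison with E12.5 that had other values against E11.5 included *Wnt11* (-0.98 and -0.11), *Spry1* (-0.54 and 0.0024), *Cldn4* (0.91 and 0.0072), *Sim1* (-0.72 and -0.042), *Stc1* (2.37 and 4.52) and *Dlx5* (4.37 and 2.67), where the first value is the log2 fold change against E12.5. *Grb10* (-8.96 and -9.09), *Lmx1a* (6.71 and 6.65) and *Calb1* (-3.78 and -3.85) had values of similar size against both. The eUB libraries are shared between these comparisons, so the pairs of values are not independent.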

How the data were processed

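RNA of eUB and ex-fetu UB cells was sequenced from a stranded mRNA kit, 1 library a sample. The authors trimmed reads with Cutadapt, mapped them with STAR and scaled them with edgeR. The methods and the submitters' processing notes name the build GRCh38, although the deposited identifiers are mouse Ensembl genes. The counter, its use of strand, the annotation release and the filter are not given in the sources used here. The deposited signal values are normalised CPM made by the authors, and every value was a whole number of reads within 0.01 after division by the step of its library. A second deposited table also holds the authors' group means, log2 fold changes and p-values of their own comparisons, which were not used. No column of the table used lacked a sample.

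Groups were taken from the sample titles. Values were tested as log2(value + 1) with limma (3.58.1, lmFit and eBayes with trend, R 4.3.3) on the 8 libraries, for the 13872 genes at or above 1 normalised CPM in 4 or more libraries, with Benjamini-Hochberg adjustment over all of them and a threshold of 0.05. On the recovered reads edgeR (4.0.16, quasi-likelihood) gave 6121 calls. The UB effect was set against the NP and SP effects by interaction terms over 24 libraries. Summed markers were compared by an exact two-sided permutation test over 70 assignments. Alternatives were another pseudocount, other filters and scalings, treat, a replicate block, the ex-fetu UB libraries titled E11.5, and leaving out libraries.

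The comparison, the 32 gene lists and the tests were chosen with earlier results of these data known. Named genes were the 10 with the largest change in each direction among those called with and without E12.5 UB replicate 1, without overlap and with a mean of at least 5, with pseudogenes and unnamed transcripts left out except the leading pseudogene in each direction, and in each list up to 3 called members per direction and its defining genes. The genes of E12.5 UB replicate 1, further members called in the Hox list, and *Hprt* were chosen after their values were seen. Some genes that this rule names are not reported here. Of the 140 reported 38 share exonic bases with another gene, 34 of them on the opposite strand, and 5 have a near copy (BLAST 2.17.0, at least 95% identity over 50% of the transcript), so reads there may belong to either. Promoter windows were those of RefSeq on GRCm38.p6. *Aqp2*, *Upk3a*, *Rtl1*, *Dppa3*, *Cyp26c1*, *Ahsp* and *Hba-a2* were not analysed here. Per the methods an ex-fetu sample pooled the embryos of 1 mouse and an eUB sample the embryoid bodies of 1 differentiation batch, and p-values measure the spread between such samples.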

Additional observations from a re-analysis of the deposited data

Results flagged for a closer look

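Of 272 groups of 4 libraries, made up of the named genes with a level above the limit of detection in eUBs and in E12.5 UBs, 64 held 1 library whose gap to the nearest other library as a share of the range exceeded Dixon's 95% critical value, a test that flags about 1 in 20 groups by chance. E12.5 UB replicate 1 was the library in 49 of the 64, the high one in 38 and the low one in 11. Levels are normalised CPM, set against the range of the other 3 libraries of the group.

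E12.5 UB replicate 1 was high for *Nkx6-1* at 0.860 against 0.0457 to 0.0966, *Uncx* at 129 against 11.6 to 30.5, *Cdkn1c* at 535 against 173 to 198, *Ftl2-ps* at 41.0 against 0.0947 to 0.145, *Cdh2* at 69.6 against 8.87 to 15.4, *Cdh6* at 14.4 against 3.75 to 5.51 and *Hoxc5* at 5.44 against 0.189 to 0.821. The same library was high for *Hoxc4* at 18.3 against 1.66 to 2.80, *Hoxa10* at 65.7 against 4.66 to 12.8, *Peg10* at 484 against 203 to 219, *Impact* at 53.1 against 13.8 to 15.4, *Zic1* at 26.8 against 0, *Zfp42* at 2.09 against 0.0457 to 0.0966 and *Slc2a3* at 222 against 89.2 to 98.2. It was also high for *Aldoc* at 17.6 against 6.72 to 8.50, *Car9* at 5.53 against 0.331 to 0.531, *Fosb* at 127 against 48.7 to 51.1, *Egr2* at 37.3 against 18.0 to 20.1, *Hspa1b* at 65.7 against 10.4 to 14.7, *Hspa1a* at 43.2 against 5.59 to 7.73 and *Dnajb1* at 155 against 56.2 to 66.3. Further genes high in it were *Insig1* at 147 against 34.1 to 52.6, *Notum* at 11.5 against 2.94 to 4.06, *Wnt4* at 69.3 against 13.9 to 20.2, *Rdh10* at 99.0 against 73.8 to 76.2, *Lama4* at 75.8 against 11.7 to 13.5, *Wt1* at 104 against 3.27 to 4.97 and *Six2* at 94.8 against 7.43 to 13.5. High there too were *Meox1* at 26.2 against 1.37 to 1.98, *Foxd1* at 15.4 against 1.78 to 3.77, *Col1a1* at 178 against 9.66 to 20.1, *Postn* at 13.8 against 1.89 to 3.14, *Pdgfra* at 50.8 against 1.75 to 3.09, *Pecam1* at 12.7 against 0.805 to 1.14 and *Cdh5* at 26.1 against 0.757 to 1.83. Likewise high were *Dcx* at 14.5 against 3.88 to 5.02, *Elavl4* at 4.99 against 0.821 to 1.14 and *Myog* at 6.84 against 0. It was low for *Grb10* at 776 against 960.3 to 969, *Myb* at 25.9 against 45.8 to 48.7, *Scnn1b* at 9.82 against 28.8 to 30.4, *Cldn8* at 66.7 against 151 to 167, *Epcam* at 372 against 603 to 635, *Cdh1* at 381 against 676 to 717 and *Tfcp2l1* at 155 against 413 to 461. Also low in it were *Hk1* at 144 against 239 to 246, *Vegfa* at 217 against 332 to 343, *Itgb4* at 7.04 against 13.9 to 15.1 and *Hprt* at 31.5 against 50.0 to 53.8.

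Among the other E12.5 UB libraries, replicate 4 was high for *Csf1r* at 26.1 against 17.4 to 18.0, *C1qc* at 16.2 against 9.33 to 10.3 and *Mrc1* at 26.3 against 14.9 to 16.2, all 3 of them macrophage markers. Of the eUB libraries, replicate 1 was high for *Cxcr4* at 81.5 against 52.5 to 54.8, *Spry2* at 117 against 102 to 104, *Ccnb2* at 96.5 against 73.9 to 76.8 and *Cited1* at 23.3 against 12.7 to 13.9, and low for *Nkx6-1* at 20.6 against 25.7 to 26.3, *Lhx1* at 74.3 against 142 to 148, *Sim1* at 39.5 against 58.6 to 61.8 and *Myh11* at 0.149 against 0.355 to 0.390. eUB replicate 2 was high for *Dll1* at 6.85 against 5.27 to 5.41 and *Wt1* at 0.248 against 0.129 to 0.149, and replicate 4 was low for *Cntnap3* at 17.3 against 20.4 to 21.0 and *Ret* at 419.9 against 485 to 498.

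For 17 of 19 leading genes the difference between eUBs and E12.5 UBs itself differed, by the limma interaction term, from the matching difference of both nephron and stromal progenitors, as in 12.4% of all genes. The leading genes were chosen for their UB difference in the same libraries, which favours such a difference, so these values are a description. On the log2 scale the UB effect minus the NP effect, and then minus the SP effect, was positive for *Lmx1a* by 4.13 and 7.06, *Sp5* by 6.88 and 6.92, *Prss56* by 5.19 and 5.34, *Nkx6-1* by 3.83 and 4.78, *Dlx5* by 4.14 and 4.51, *Wnt2b* by 3.85 and 4.47, *Eda2r* by 4.57 and 5.03, *Cntnap3* by 3.99 and 4.42 and *BC048679* by 3.93 and 4.0. It was negative for *Grb10* by -5.40 and -5.73, *Uncx* by -3.20 and -6.54, *Tfap2b* by -6.88 and -4.79, *Slit1* by -3.82 and -4.97, *Igf2r* by -5.59 and -4.75, *Csf1r* by -4.07 and -3.56, *Cdkn1c* by -4.82 and -4.24 and *Stab1* by -6.51 and -6.47. *Xist* and *Slfn9* did not differ from both in the same sense. The mESC line differs between UB and the other progenitors and cannot be told apart from cell type.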

How the results depend on the processing

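Of 135 named genes tested, 135 kept the call they had with a pseudocount of 0.1 and 130 with edgeR on recovered reads, where 5 lost it (*Zic1*, *Zfp42*, *Hoxc4*, *Ftl2-ps* and *Foxd1*, adjusted p = 0.062 for *Ftl2-ps*, 0.1 for *Zfp42* and 0.055 for *Foxd1*), whereas 70 lost it with treat. Against UBs titled E11.5, 9 of 133 lost the call with no change of sign and 6 that were called against either age changed sign. The count of calls moved by over 1.5 times with treat against a log2 fold change of 1 (443, of which 234 higher and 209 lower) and without both E12.5 UB replicate 1 and eUB replicate 1 (9401, of which 4840 higher and 4561 lower), an alternative chosen after seeing the data. With 1 library left out at a time the calls ranged from 4916 to 7251, the higher ones from 2631 to 3877 and the lower ones from 2235 to 3533, and 0 to 8 named genes lost the call. These were 9 genes in all, *Sim1* with 7 of the 8 libraries left out, *Egfl7*, *Hspa1a* and *Meox1* with 6, *Col1a1* and *Dll1* with 5, *Vegfa* with 4 and *Ocln* and *Postn* with 2. With upper-quartile scaling 56.1% of calls were higher, against 52.3%. Those 6 were *Spry1* (0.0024), *Krt8* (-0.64), *Hspa1b* (-1.08), *Hspa1a* (-1.42), *Dll1* (0.074) and *Elavl4* (0.53), and *Pax2*, *Epcam* and *Cdh1*, called against neither age, changed sign too. Without E12.5 UB replicate 1 *Elavl4* was at 0.40, the summed stromal markers were 31.1 above E12.5 UBs in place of 211 below (difference -211), and the neuronal markers 8.33 above in place of 4.13. Without both libraries *Cdh1* was at -0.22 and *Elavl4* at 0.47. Leaving out 1 library at a time, *Cdh1* ranged from -0.20 to 0.11 and *Elavl4* from -0.18 to 0.40. The cause was not tested. The difference of UB and NP effects was called in 4894 to 6086 genes and that of UB and SP effects in 5856 to 6938 under the alternatives, the highest without replicate 1 of E12.5 UB, NP and SP, an alternative chosen after seeing the data.

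The replicate numbers are shared across groups, but the deviations of same-numbered libraries correlated at 0.09, 0.05, 0.058 and -0.074, and not every library correlated best with its own number. The numbers therefore do not pair the samples. Blocking on the number gave 6010 calls, 3072 higher and 2938 lower, and 3 named genes lost and 1 gained the call.

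At 13 to 28.0 M reads a library, levels of 0.106 to 0.223 normalised CPM rest on 3 reads, and the eUB levels of *Xist*, *Hoxd11*, *Uncx* and *Wt1* lay near or below this limit. The libraries are pools, and 4 a group limit the precision of each fold change.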
